A study of Sus scrofa with 3 samples.

Results

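The genes described here encode TFIID subunits and their paralogs, some of them studied in germ cells: TAF4 with TAF4B, TAF7 with TAF7L, TAF9 with TAF9B, and TBP with TBPL1. They were chosen by symbol, with earlier results of these data known. Of the 8 listed genes, 7 had a row among the 18730 genes of the deposited table. TBP was not analysed here, so TBPL1 has no measured counterpart. All values come from pig testis cells sorted for SSEA4, a surface glycolipid by which the study aimed to enrich spermatogonial stem cells. There were 3 RNA libraries, S1, S2 and S3, of SSEA4-positive spermatogonia from pigs 90 days old, with no breed, treatment or genotype label. Whether they derive from different animals is not in the labels, so each p-value covers no more than the library-to-library spread, which can be technical. The design also names undifferentiated spermatogonia as a population, and no libraries of it were analysed here.

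TFIID is the complex that recognises core promoters and starts the assembly of RNA polymerase II with its general factors. It is built from the TATA-binding protein TBP and TBP-associated factors, the TAFs, several of which pair through histone folds. Gonads use alternative forms of some subunits. In mice, TAF4B is needed to maintain the spermatogonial stem cell pool and TAF7L is a testis-enriched form. TBPL1, which binds TFIIA but not the TATA box, is needed there for spermatids to mature.

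Transcripts of the paralogs TAF4B, TAF9B and TBPL1 were well above the middle of the transcriptome, while TAF7L was close to 1 FPKM. FPKM counts fragments per kilobase of gene and per 1000000 mapped fragments, so it is a level per length. A comparison between genes also rests on their annotated lengths and on how well reads map to each, which were not checked. An error in these would recur in every library, so agreement of the 3 libraries does not bear on it. Of the 7 measured genes, 6 lay above 1 FPKM, with adjusted p from 3.96e-08 to 1.17e-07 (limma on log2(FPKM + 1), Benjamini-Hochberg over 17949 genes), and TAF7L was not told apart from that level. Across all genes tested, 65.6% lay above 1 FPKM and 28.5% below it, so a position above this level is common. By mean FPKM the order was TAF9, TAF7, TAF9B, TBPL1, TAF4, TAF4B and TAF7L, and the first was 94.1 times the last. Each gene exceeded the next in 3 of 3 libraries, and each mean log2 ratio between neighbours was larger than its SD. The order was set from the means of these same libraries, so the direction of each mean ratio was largely given. These values describe the order and are no separate support for it. With 3 libraries the two-sided exact sign-flip permutation test cannot give a p under 0.25, which was the value for all 6 neighbour pairs (adjusted p = 0.25).

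**Figure D1:**
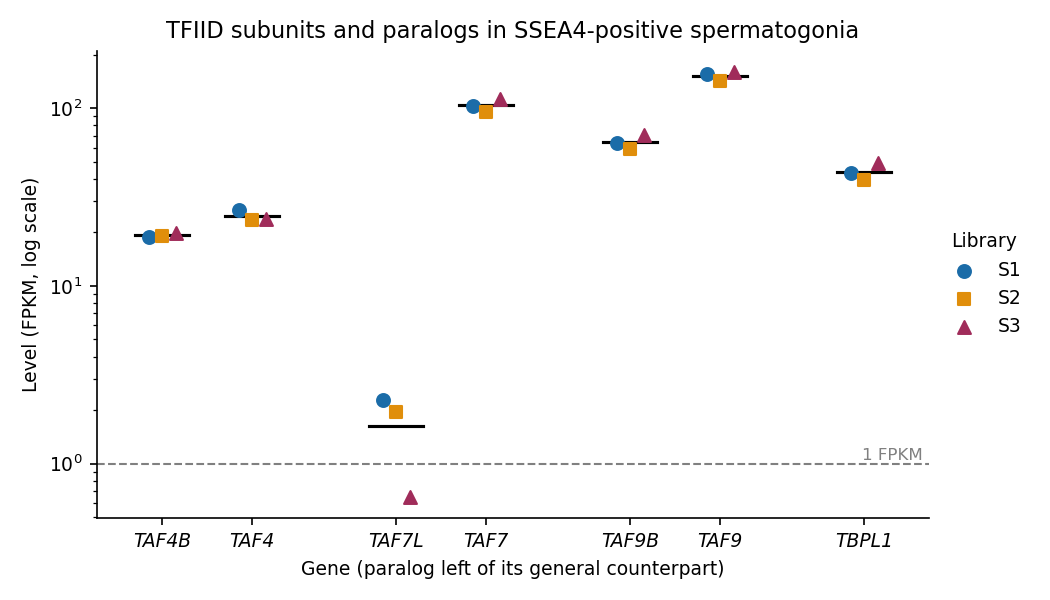
Level of each measured gene in FPKM (log axis) in the libraries S1, S2 and S3, with a bar at the mean of the 3 and a dashed line at 1 FPKM. TAF4B, TAF7L and TAF9B each stand left of their general counterpart and are lower, and TBPL1 has no measured counterpart. TAF7L in S3, at 0.651 FPKM, is the only value under the line.

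TAF4B and TAF4 were the most evenly balanced of the member pairs. TAF4 is the histone-fold subunit that pairs with TAF12 and holds much of TFIID together, and TAF4B takes its place in some cells of the gonads and the immune system. TAF4B was at 18.9, 19.2 and 19.9 FPKM over S1, S2 and S3, a mean of 19.3 ± 0.542 (SD, n = 3). TAF4 was at 26.9, 23.4 and 23.8 FPKM in the same libraries, a mean of 24.7 ± 1.92. The ranges did not overlap, and TAF4B was the lower of the pair in 3 of 3 libraries. The log2 ratio of TAF4B to TAF4 was -0.51 in S1, -0.29 in S2 and -0.26 in S3, with a mean of -0.35 ± 0.14 (SD, n = 3). TAF4B therefore made up 41.2%, 45.0% and 45.5% of the summed FPKM of the pair. This was 1 of 3 member pairs tested, and each gave p = 0.25 (adjusted p = 0.25), the lowest value open to an exact sign-flip permutation test over 3 libraries. TAF4B exceeded 78.5% of the 17949 genes in mean level and TAF4 exceeded 82.5%. In the values as deposited, TAF4B also had the smallest relative spread among the members. Its coefficient of variation was 2.80%, against a median of 9.34% over 12333 genes. Those genes averaged 1 FPKM or more and were above 0 in every library.

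TAF9B was abundant, at less than the level of TAF9. TAF9 pairs with TAF6 through histone folds and belongs both to TFIID and to SAGA, a co-activator complex that acetylates histones, and TAF9B, an X-linked paralog, also occurs in both complexes. TAF9B was at 63.9, 58.7 and 70.9 FPKM over S1, S2 and S3 and exceeded 93.7% of genes in mean level. TAF9 was at 156, 142 and 160.1 FPKM and exceeded 98.0% of genes. Both genes were lowest in S2 and highest in S3, although TAF9 was highest in S1 when mitochondrial and ribosomal protein genes were left out, and their ratio changed little. The log2 ratio of TAF9B to TAF9 was -1.29, -1.27 and -1.18, with a mean of -1.24 ± 0.06 (SD, n = 3), and TAF9B was lower in 3 of 3 libraries. In fold terms TAF9B was at 0.422 times the level of TAF9. TAF9B held 29.0%, 29.3% and 30.7% of the summed FPKM of the pair. Both values carry some uncertainty from counting. The paralogs are similar in sequence, and the RefSeq annotation of Sscrofa11.1 places TAF9 over part of AK6, an adenylate kinase gene that was listed at 2.50, 2.63 and 2.99 FPKM.

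TAF7L stood apart from TAF7 in every library. TAF7 binds TAF1, the largest TFIID subunit, and restrains its acetyltransferase activity, while TAF7L is an X-linked paralog that in mice replaces TAF7 as germ cells enter later stages and also acts in fat cell differentiation. TAF7L was at 2.27 FPKM in library S1, at 1.94 in S2 and at 0.651 in S3. TAF7 was at 103, 95.8 and 113 FPKM in the same libraries. The log2 ratio of TAF7L to TAF7 was -5.50, -5.62 and -7.42, with a mean of -6.18 ± 1.07 (SD, n = 3), lower in 3 of 3 libraries. TAF7L held 2.15%, 1.99% and 0.573% of the summed FPKM of this pair. Taken without S3, the mean log2 ratio was -5.56, and with a pseudocount of 1 in place of 0.01 it was -5.38. Against 1 FPKM, TAF7L had a log2 difference of 0.33 ± 0.20 (SE; limma, adjusted p = 0.162). Without S3 the difference was 0.63 and lay above the level (limma, adjusted p = 0.0022). Over the alternatives that kept the level of 1 FPKM, adjusted p ran from 0.0022 to 0.585. TAF7L exceeded 37.0% of genes in mean level.

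TBPL1 was the only TBP family gene among the members with a value. It was at 43.2, 39.6 and 48.9 FPKM over S1, S2 and S3, a mean of 43.9 ± 4.73 (SD, n = 3), and exceeded 90.0% of genes. Like TAF7 and TAF9B it was lowest in S2 and highest in S3, under each of the 3 scalings tried. TBPL2, a further TBP paralog known for its role in mouse oocytes, was at 0.886, 0.919 and 2.13 FPKM and was not told apart from 1 FPKM (limma, log2 difference 0.17, adjusted p = 0.344). TBPL2 thus reached its highest value in S3, where TAF7L had its lowest. TFIIA, the general factor that TBPL1 binds, has a germ cell form of its large subunit, GTF2A1L. GTF2A1L was at 5.69, 5.30 and 4.43 FPKM, while its general counterpart GTF2A1 was at 48.9, 48.5 and 48.8 FPKM. The mean log2 ratio of GTF2A1L to GTF2A1 was -3.25 ± 0.18 (SD, n = 3), a share of 9.54% ± 1.08 of the pair.

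**Figure D2:**
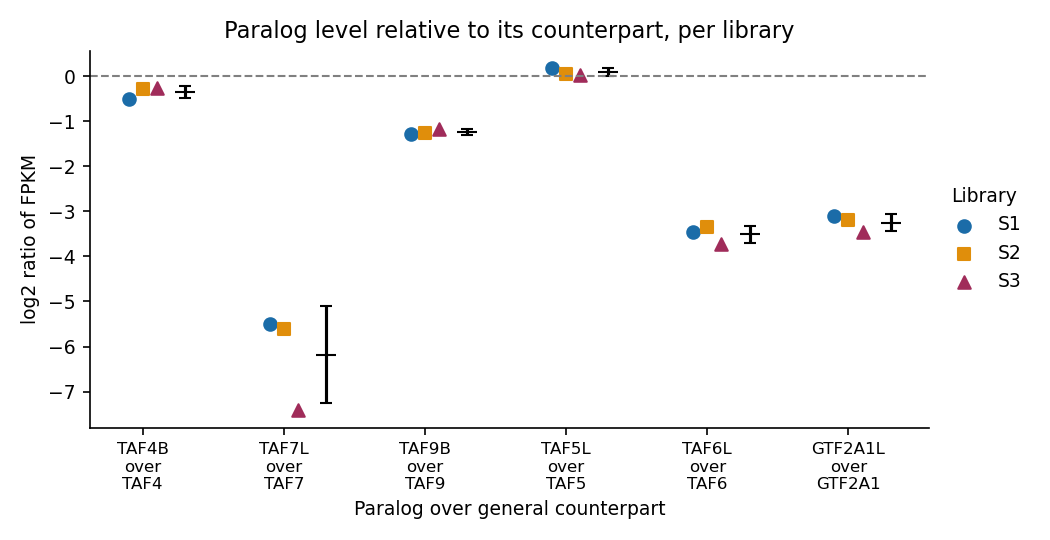
The log2 ratio of FPKM of each paralog over its general counterpart in the libraries S1, S2 and S3, with a bar at the mean and its SD; the dashed line at 0 marks equal levels. TAF4B, at -0.35, lies nearest to 0 among the 3 member pairs, TAF9B lies at -1.24 and TAF7L at -6.18, with S3 lowest.

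Of the other pairs, 1 was near equality and 1 had a low paralog. TAF5L and TAF6L are the SAGA counterparts of the TFIID subunits TAF5 and TAF6. TAF5L was at 24.1, 22.1 and 26.7 FPKM and TAF5 at 21.2, 21.3 and 26.3 FPKM, with a mean log2 ratio of 0.08 ± 0.09 (SD, n = 3), which is no larger than its spread. TAF6L was at 3.72, 3.51 and 3.99 FPKM and TAF6 at 41.4, 36.1 and 52.5 FPKM, with a mean log2 ratio of -3.51 ± 0.18. These ratios were not tested.

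In the values as deposited, relative spread between libraries was smallest for TAF4B and largest for TAF7L among the members. After rescaling to a sum of 1000000, TAF4B (22.0, 22.4 and 25.5) varied more in relative terms than TAF4 (31.3, 27.4 and 30.5). With genes of mitochondria and ribosomal proteins left out, TAF9 (473, 451 and 472) varied less than TAF4B (57.2, 61.0 and 58.8). As deposited, the coefficient of variation was 2.80% for TAF4B, 7.75% for TAF4, 8.33% for TAF7, 6.39% for TAF9, 9.50% for TAF9B and 10.8% for TBPL1. For TAF7L it was 52.8%, higher than for 99.1% of the 12333 genes, many of which have much higher levels. The log2 ratio of S3 to the mean of S1 and S2 was -1.69 for TAF7L, and 0.389% of the genes had a lower one. For the other members it was -0.08 for TAF4, 0.07 for TAF4B, 0.11 for TAF9, 0.18 for TAF7, 0.21 for TAF9B and 0.24 for TBPL1. The median over the 12333 genes was 0.06. It was 0.19 after each library was rescaled to a sum of 1000000, and -0.02 when the genes of ribosomal proteins and those encoded in mitochondria were left out first. The first rescaling turned the sign for TAF4, to 0.06, and the second turned it for TAF4B, to -0.01. Relative to the median of all genes, TAF7L stood at -1.75, TAF4 at -0.14 and TBPL1 at 0.18. These values were alike under all 3 scalings by construction. Each scaling multiplies a library by a single factor, which subtracting the median takes out again.

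**Figure D3:**
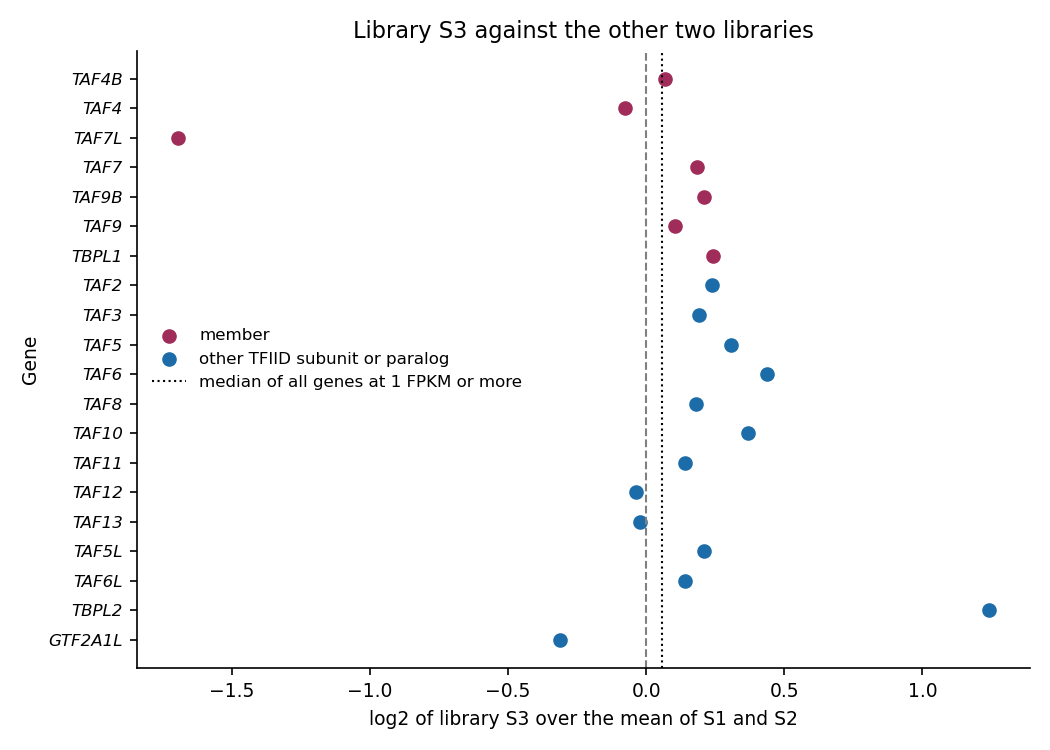
The log2 ratio of the level in S3 to the mean of S1 and S2 for each measured member and for the other TFIID subunits and paralogs, with a dashed line at 0 and a dotted line at 0.06, the median of the 12333 genes. TAF7L lies at -1.69 and TBPL2 at 1.24, and the other genes lie between -0.31 and 0.44.

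Marker genes of the labelled cells were present in all libraries, and summed marker levels, theirs and those of other testis cells, differed between libraries. Over all genes tested, 65.6% lay above 1 FPKM and 28.5% below it, the shares to set beside the marker counts that follow. For counts lower in S3, the log2 ratio of S3 to the mean of S1 and S2 serves as background. As deposited, 39.7% of the 12333 genes had a ratio under -0.011 and 41.7% one under 0.002. Their median ratio was 0.06, 0.19 after rescaling to a sum of 1000000 and -0.02 without mitochondrial and ribosomal protein genes. Such shares were not computed for the rescaled values. Markers averaging under 1 FPKM are not among the 12333 genes. Of 10 measured markers of undifferentiated spermatogonia, 10 lay above 1 FPKM, led by NANOS3 and ETV5. Their summed level was 178, 163 and 256 FPKM over S1, S2 and S3, of which NANOS3 was at 50.0, 43.7 and 98.1 FPKM. Mean levels in this list ran from 2.47 to 63.9 FPKM. As deposited, 9 of the 10 were highest in S3, against 50.0% of the 12333 genes. The germ cell markers, led by STK31 and DDX4, summed to 336, 346 and 385 FPKM, with 4 of 4 above. The 9 Sertoli cell markers summed to 416, 309 and 190 FPKM, 5 of 9 above and 4 below, and 9 of 9 were lower in S3 than the mean of S1 and S2, or 8 of 9 after rescaling to a sum of 1000000. Among them CLU was at 325, 234 and 125 FPKM and WT1 at 45.6, 40.9 and 41.9 FPKM. The 6 Leydig cell markers summed to 17.8, 14.7 and 7.57 FPKM, 3 above and 2 below, with 5 of 6 lower in S3, or 4 of 6 after that rescaling. CYP11A1, the first enzyme of steroid synthesis, was at 12.0, 9.75 and 2.64 FPKM, whereas NR5A1, a transcription factor of steroid-producing cells, was at 2.38, 2.28 and 2.92 FPKM and highest in S3. The 7 peritubular cell and fibroblast markers summed to 106, 81.1 and 71.6 FPKM, 7 above, and 5 of 7 were lower in S3, or 3 of 7 after the same rescaling. Of these, TAGLN was at 37.2, 24.4 and 8.87 FPKM and DCN at 34.8, 28.5 and 31.0 FPKM. With genes of mitochondria and ribosomal proteins left out, 9 of 9 Sertoli cell and 5 of 6 Leydig cell markers were lower in S3. For peritubular cell and fibroblast markers the count was then 5 of 7. As deposited, 6 of 9 spermatid, 2 of 3 differentiating spermatogonia, 3 of 4 endothelial and 4 of 6 leukocyte markers were lower in S3 too. The counts were 1 of 4 for germ cell, 0 of 10 for undifferentiated spermatogonia and 1 of 5 for spermatocyte markers. TAF7L was also lowest in S3, and the part of any of these cell types in its value was not tested. The 9 spermatid markers summed to 96.5, 24.9 and 46.4 FPKM, 3 above and 4 below, with PRM1, a protamine, at 51.0, 1.53 and 11.0 FPKM and SPACA1 at 22.5, 19.6 and 28.7 FPKM. The 5 spermatocyte markers summed to 96.4, 101 and 119 FPKM, 5 above, led by SYCP1 and HORMAD1. The 3 markers of differentiating spermatogonia summed to 32.2, 27.6 and 28.1 FPKM, 2 above and 1 below, led by KIT and SOHLH2. Endothelial markers summed to 10.9, 11.0 and 8.54 FPKM, 2 of 4 above and 1 below, led by KDR and PECAM1. Leukocyte markers, led by CD68 and PTPRC, summed to 3.02, 2.75 and 2.04 FPKM, 0 of 6 above and 5 below (limma; also 0 above at an unadjusted p under 0.05). No measured marker was at 0 in all libraries. Cells other than those sorted were not analysed here, so whether any member is restricted to germ cells was not tested. In such sorted bulk samples, fewer cells of a type and less RNA per cell cannot be told apart.

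The measured core subunits of TFIID outside the member list spanned levels that enclosed those of TAF4B and TAF4. Of 10 listed subunits, 9 were measured and 9 lay above 1 FPKM (limma, adjusted p from 4.33e-08 to 7.50e-07), against 65.6% of all genes tested. TAF1 was not analysed here. The median of the 9 was 22.9 FPKM, against 3.93 FPKM over all genes tested. TAF2, which contacts the initiator element, was highest at 102 ± 9.96 FPKM (SD, n = 3), near TAF7. TAF6, the histone-fold partner of TAF9, followed at 43.3 ± 8.39, and TAF13 at 41.4 ± 1.24. TAF12, the partner of TAF4 and TAF4B, was at 25.5, 22.5 and 23.4 FPKM over S1, S2 and S3, close to TAF4. TAF5, a scaffold subunit with WD repeats, was at 22.9 ± 2.91 FPKM and TAF8, the partner of TAF10, at 22.6 ± 2.44. The lowest were TAF11, the partner of TAF13, at 17.7 ± 1.03, TAF3, which reads a methylated histone tail, at 16.6 ± 1.56, and TAF10 at 15.7 ± 2.41. TAF4B was higher than 3 of these 9 subunits and TAF4 higher than 6, TBPL1 and TAF9B than 8 each, and TAF7 and TAF9 than all 9. TAF7L was lower than each of them. In S3, 7 of the 9 had their highest value as deposited, 9 after rescaling to a sum of 1000000 and 7 once genes of mitochondria and ribosomes had been taken out. Among all genes the shares with their highest value in S3 were 50.0%, 69.1% and 39.7%, and among the 7 members the counts were 5, 5 and 3.

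The general transcription factors that join TFIID at promoters were present as well. Of 7 listed genes of TFIIA, TFIIB, TFIIE and TFIIF, 6 were measured and 6 lay above 1 FPKM, with a median of 50.7 FPKM. GTF2E2, of TFIIE, was at 227 ± 27.2 FPKM (SD, n = 3) and GTF2F2, of TFIIF, at 56.6 ± 5.10, while GTF2F1 was at 42.6 ± 6.30 and GTF2A2, the small subunit of TFIIA, at 25.8 ± 1.09. Of 10 TFIIH genes, 8 were measured and 8 lay above, with a median of 18.1 FPKM. GTF2H1 led at 130 ± 10.1 FPKM and GTF2H5 followed at 62.9 ± 3.61, and ERCC2, a helicase, at 11.6 ± 1.11 and the kinase CDK7 at 8.47 ± 0.247 were lowest. All 16 listed SAGA genes that are not shared with TFIID were measured and lay above 1 FPKM, with a median of 23.2 FPKM. SUPT20H was at 227 ± 33.6 FPKM and SGF29 at 197 ± 20.2, and TAF6L at 3.74 ± 0.241 and the acetyltransferase gene KAT2B at 1.95 ± 0.0496 were lowest. With 65.6% of all genes above 1 FPKM, these counts describe presence at that level. No differences between the lists were tested.

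**Figure D4:**
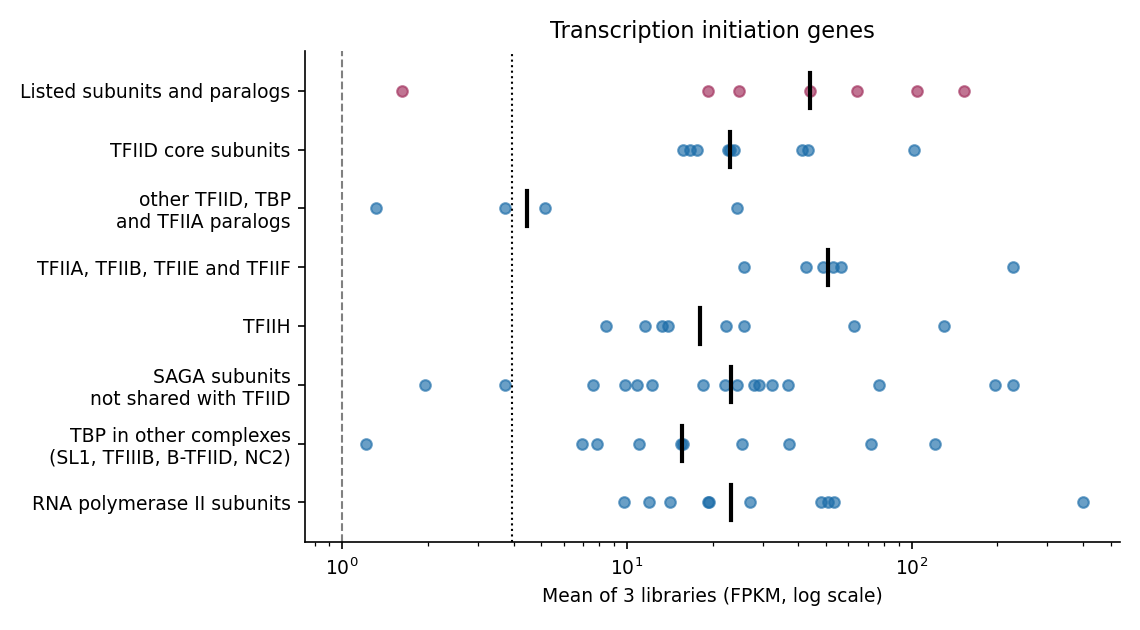
Mean of 3 libraries in FPKM (log axis) of each measured gene in the member list and in 7 lists of transcription initiation genes, with a bar at each list's median, a dashed line at 1 FPKM and a dotted line at the median of all genes tested, 3.93 FPKM. Apart from the list of other TFIID, TBP and TFIIA paralogs, at 4.44 FPKM, the medians of the 7 lists lie between 15.7 and 50.7 FPKM.

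The genes nearest to TAF4B, TBPL1 and TAF7L in level over the 3 libraries were found by Euclidean distance in log2(FPKM + 1), which reflects level more than pattern. For TAF4B they were PSME4, a proteasome activator, at 19.1, 19.3 and 19.6 FPKM over S1, S2 and S3 (distance 0.03), TOP3B and GAPVD1. For TBPL1 they were SMAP1, at 43.8, 40.2 and 49.3 FPKM (distance 0.03), ERI3 and MED10, a subunit of Mediator. For TAF7L they were CSRP3, a muscle LIM protein gene, at 2.50, 1.97 and 0.757 FPKM (distance 0.13), CSDC2 and SEMA7A.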

How the data were processed

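RNA depleted of ribosomal RNA was made into directional libraries and read as 150 bp pairs, per the labels' protocols. Per the same protocols, trimming used cutadapt 1.9.3, alignment used HISAT2 2.0.4, and Cuffdiff gave a value for each Ensembl gene. They name susScr3, and the submitters' processing notes also name Sscrofa11.1, and coordinates are left out for that reason. The deposited values are FPKM from the authors, per the labels' protocols, although the table's name says TPM. The columns sum to 859642, 855276 and 781871. Ratios of genes within a library are the same in either unit, apart from the pseudocount. Mitochondrially encoded genes held 57.7%, 59.3% and 52.7% of the sums. The table holds no counts, so depth is unknown and no counting interval is given.

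Column names do not tell which labelled sample each is, so they were used as 3 libraries of 1 group. Symbols came from the table (14623 rows) or, where it gave none, from a table of Ensembl names (737 rows). Rows whose symbols differed between the sources (334) were left out of the lists, among them VWF. Values under 1e-06 were set to 0. Levels were tested as log2(FPKM + 1) against 1 FPKM with limma 3.58.1 in R 4.3.3 (intercept only, eBayes with a trend, two-sided, Benjamini-Hochberg over 17949 genes above 0 in some library, threshold 0.05). The test was checked on simulated data with independent noise of each gene's own SD. This does not cover effects shared by the genes of a library. Paralog ratios used a pseudocount of 0.01 and an exact two-sided sign-flip test over libraries, adjusted over 3 member pairs and over 6 neighbour pairs. The planned pair of TBPL1 with TBP could not be formed. The members and lists were chosen with earlier results of these data known. Genes were named by a rule: all members, TFIID subunits and paralogs, the 2 highest and 2 lowest of each other pathway list, the 2 highest of each marker list and the 3 genes nearest to TAF4B, TAF7L and TBPL1. AK6, which overlaps TAF9, was added after the values were seen.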

Additional observations from a re-analysis of the deposited data

How the results depend on the processing

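In all, 135 values were recomputed, for the members, their ratios and order, and the counts over all genes. Of these, 128 kept their direction and their side of the threshold, or for a count stayed within 1.5 times. For ratios and neighbour orders only the direction could change. Their sign-flip p was 0.25 with all libraries and 0.5 with 1 left out, so it could not reach 0.05. Rescaling to 1000000 leaves such ratios the same apart from the pseudocount, and TAF4 with TAF4B was counted in both sets. The 128 thus includes outcomes fixed by the design. TAF7L lay above 1 FPKM when genes encoded in mitochondria and those of ribosomal proteins were left out, at a log2 difference of 1.46, because the rest were rescaled upwards. It lay below a level of 5 FPKM, at -1.25, since that level is higher. With 1 library left out its difference from 1 FPKM was 0.14 to 0.63. At 5 FPKM, 7632 genes lay above and 9130 below. Testing fewer low genes, by a filter that kept means from 0.5 FPKM upwards, gave 798 genes below 1 FPKM, and leaving out the genes of mitochondria and ribosomes gave 2924. The other alternatives were a pseudocount of 0.1, rescaling to 1000000, eBayes without a trend and, for ratios, a pseudocount of 1. No ratio or neighbour order changed sign under those run for it. No paired analysis was possible because there is a single group. Without known depth, what it does to low values such as those of TAF7L was not tested.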

Other observations

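TBP also serves RNA polymerases I and III. Of 10 listed genes of its other complexes, 10 were measured and 9 lay above 1 FPKM (limma, adjusted p from 4.34e-08 to 2.47e-06). The share of all genes tested above that level was 65.6%. TAF1D, of the RNA polymerase I factor SL1, was highest, at 103, 111 and 148 FPKM over S1, S2 and S3. DRAP1, a subunit of the TBP inhibitor NC2, had the opposite order, at 81.0, 73.4 and 62.4 FPKM. BRF1, of the RNA polymerase III factor TFIIIB, was at 6.93 ± 0.716 FPKM (SD, n = 3). BRF2, its paralog for a different class of RNA polymerase III promoters, was at 1.35, 1.30 and 0.984 FPKM and was not told apart from 1 FPKM (limma, log2 difference 0.14, adjusted p = 0.103).

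Of 12 listed RNA polymerase II subunit genes, 10 were measured and 10 lay above 1 FPKM, against 65.6% of all genes tested. POLR2A, the largest subunit, was at 398, 366 and 434 FPKM over S1, S2 and S3, and POLR2E at 53.6 ± 2.02 FPKM (SD, n = 3). The lowest were POLR2D at 11.9 ± 0.278 and POLR2H at 9.80 ± 0.136. POLR2A thus stood above TAF9, the highest TFIID gene measured, in 3 of 3 libraries.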
